A study of Homo sapiens with 26 samples.

Results

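The genes described here are 34 genes of cholesterol and fatty acid synthesis, followed in 3 established human pancreatic ductal adenocarcinoma lines whose HNF4A expression was raised or lowered. HNF4A encodes HNF4α, a nuclear receptor and transcription factor of liver and gut with isoforms made from 2 promoters, P1 and P2. The members were a fixed list of symbols matched by Ensembl identifier, and all 34 were found among the 62703 genes of the Panc10.05 and BxPC3 tables and the 62754 genes of the AsPC-1 table. They comprised 7 genes of the mevalonate arm, 11 of the sterol arm, 9 of the fatty acid arm, 4 regulators and 3 genes of sterol transport. The list holds sterol and lipogenic enzymes together with known targets of the same transcription factors. The rule names them by function, but the list was chosen with earlier results of these data known. Shares of members set beside shares of all genes are therefore description.

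Panc10.05 and BxPC3 carried doxycycline-inducible constructs for HNF4A P1-a2 or HNF4A P2-a8, or a control construct, labelled NC, which the titles name GFP-NC in Panc10.05 and EV-NC in BxPC3. All of these cultures received doxycycline, controls included, at 500 ng/mL in the 3 BxPC3 groups, at 25 ng/mL in the NC and P1-a2 groups of Panc10.05 and at 12.5 ng/mL in the P2-a8 group of Panc10.05. In AsPC-1, CRISPR interference, which blocks transcription at the site a guide RNA names, was aimed at P1 (guides sgP1E and sgP1J), at P2 (sgP2D and sgP2G) or at both (sgDual2 and sgDual3), with sgNC as the control guide. Each construct or guide had 2 libraries, so that the repressed groups held 4 and the other groups 2. The fits by target treated the libraries of both guides as replicates, so their p-values do not separate guide from library spread. As sgNC was the only control guide, an effect of its own cannot be told apart from that of targeting. All cells grew in RPMI medium with fetal bovine serum. The labels do not say whether replicates were separate cultures or clones, and time after induction is not given in the sources used here. Nothing in the labels ties P1-a2 or P2-a8 to a natural level of the protein, and counts per gene do not separate an introduced HNF4A from the cell's own.

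Cholesterol is built from acetyl-CoA through mevalonate, farnesyl diphosphate and squalene, and then lanosterol, which is trimmed and rearranged into cholesterol. Fatty acid synthesis starts from the same acetyl-CoA and ends in desaturation and elongation. Both branches are switched on by the SREBP transcription factors: SREBP-1 (gene SREBF1) acts mainly on fatty acid genes and SREBP-2 (SREBF2) mainly on sterol genes, and both are held in the endoplasmic reticulum by INSIG proteins when sterols are plentiful. INSIG1 is itself an SREBP target, and liver and gut, where HNF4α is active, are major sites of lipid synthesis.

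Each Panc10.05 library held 34618745 to 46827673 counts, with 26369154 to 37483772 for BxPC3 libraries and 26079388 to 50662077 for those of AsPC-1. HNF4A was at 0.24 and 0.058 CPM (counts scaled to a common library size, per 1e6 counts) in the NC libraries of Panc10.05, 10.7 and 12.98 under P1-a2 and 37.6 and 37.6 under P2-a8. In BxPC3 it was at 1.08 and 0.464, 9.76 and 11.6 and 12.6 and 14.2 CPM. In AsPC-1 it fell with sgDual (-4.73, adjusted p 6.25e-06 in edgeR's quasi-likelihood fit) and did not pass the threshold with sgP1 (-0.72, adjusted p 0.615) or sgP2 (-1.30, adjusted p 0.0751). HNF4A there gave 206 and 220 CPM with sgNC, 109 to 146 with sgP1, 76.7 to 93.9 with sgP2 and 3.19 to 13.6 with sgDual. These groups did not overlap, so every library with a guide to P1 or P2 lay below both sgNC libraries. Keratin 8, keratin 19, KRT18 and EPCAM were abundant in all 26 libraries, and keratin 7 only in the induced lines (at most 8.47 CPM in AsPC-1). The epithelial gene CDH1 ranged from 13.34 to 77.3 CPM in AsPC-1 and was higher in the induced lines. Among marker genes of other cell types, the leukocyte gene PTPRC was at or near 0 in every library. PECAM1, COL3A1, ALB, PRSS1, INS and GCG were at most 1.08 CPM in any library. In BxPC3, however, COL1A1 was at 10.48 CPM or more, CDH5 at 3.37 to 5.24 and ACTA2 at 3.57 to 6.06. COL1A1 was at 4.26 to 6.99 CPM in Panc10.05. These are bulk libraries, so fewer cells of a kind and less RNA per cell cannot be told apart.

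Of the 34 members, 30 had a promoter window in the RefSeq table for GRCh38.p14, reaching from 250 bases before the annotated start to 50 after it. The CCAAT box, the site of the factor NF-Y that works beside SREBPs at many sterol genes, was searched as CCAAT on both strands (ATTGG on the other). It was present in 20 of these 30 windows (66.7%), against 34.6% of all 35116 windows of this length. MVK and NSDHL held 5 copies each, MSMO1 held 4, and SREBF1, FADS1, FADS2, ELOVL6, IDI1, CYP51A1, ACACA, INSIG2, LPIN1 and PMVK held 0. A sterol response element-like sequence, TCACNCCAC, was found in 1 member window (3.33% against 1.13% of all windows), that of SREBF2, starting 133 bases before its start. The E-box CACGTG was found in 3 (10.0% against 7.26%), LSS, SC5D and INSIG1. An HNF4-like sequence, CAAAGTCCA, was found in 0 of the 30 and in 0.384% of all windows. A match of letters is a description and not a bound site, and these data hold no binding measurement.

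The stretches of 120 bases below lie upstream of the annotated starts and are shown for members whose values carry the results that follow. Capitals mark CCAAT boxes, on either strand, and in SREBF2 also the TCACNCCAC match; all are GRCh38.p14, written 5′ to 3′ on the strand of the gene. MSMO1 (chr4:165327503-165327622, plus strand) and MVD (chr16:88663162-88663281, minus strand) stand for genes of the mevalonate and sterol arms that were lower with P1-a2 than with P2-a8 in Panc10.05 and higher in BxPC3, and SREBF1 (chr17:17837003-17837122, minus strand) for the gene that fell in both. SREBF2 (chr22:41832959-41833078, plus strand), SCD (chr10:100347004-100347123, plus strand) and INSIG1 (chr7:155297656-155297775, plus strand) are shown as a regulator, the fatty acid gene with the largest fall and the retention gene that is itself an SREBP target. The SREBF1 stretch holds no capital, whereas those of MVD and SCD hold 3 and 2 CCAAT boxes, and that of MSMO1 holds 2 of its 4.
MSMO1: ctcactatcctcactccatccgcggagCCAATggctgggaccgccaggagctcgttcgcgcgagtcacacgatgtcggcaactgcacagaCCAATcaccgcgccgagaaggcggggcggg
MVD: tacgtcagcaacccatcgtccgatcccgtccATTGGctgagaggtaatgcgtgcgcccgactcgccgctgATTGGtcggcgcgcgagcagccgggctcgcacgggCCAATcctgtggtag
SREBF1: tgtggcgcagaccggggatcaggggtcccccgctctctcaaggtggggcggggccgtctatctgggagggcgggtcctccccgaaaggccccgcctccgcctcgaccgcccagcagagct
SREBF2: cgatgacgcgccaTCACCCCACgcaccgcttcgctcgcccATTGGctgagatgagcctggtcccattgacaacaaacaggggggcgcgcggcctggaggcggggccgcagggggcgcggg
SCD: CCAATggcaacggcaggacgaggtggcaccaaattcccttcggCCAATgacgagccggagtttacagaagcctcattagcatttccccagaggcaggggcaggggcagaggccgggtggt
INSIG1: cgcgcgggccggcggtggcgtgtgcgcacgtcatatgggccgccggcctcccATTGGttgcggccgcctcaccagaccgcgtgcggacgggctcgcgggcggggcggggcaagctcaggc

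Per kilobase of exon, SCD (stearoyl-CoA desaturase, which makes monounsaturated fatty acids) was the most abundant member in the control libraries of each line, at a mean of 141.8 CPM per kb in Panc10.05, 359 in BxPC3 and 105 in AsPC-1. FADS1 and FADS2, the desaturases of polyunsaturated fatty acids, ranked near the bottom in Panc10.05 at 0.411 and 0.282 CPM per kb, whereas in BxPC3 FADS1 stood at 13.6 and in AsPC-1 FADS2 at 7.22. SREBF1 was the third of the 34 in BxPC3 at 77.6 CPM per kb, against 16.2 in Panc10.05 and 13.3 in AsPC-1. NPC1L1, the intestinal cholesterol uptake protein, was the lowest in each line, and only in Panc10.05 did it pass the filter on low counts. These levels come from separately scaled tables, and the lines were not tested against each other in level.

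With P1-a2 in Panc10.05, 3 of the 4 regulators and 4 of the 9 fatty acid genes fell, while FADS1 and ACLY rose. Of the 34 members, 7 were higher and 16 lower than in NC (20.6% and 47.1%), beside 31.5% and 30.5% of all 17247 genes tested. The median log2 fold change was -0.13 over the members and 0.02 over all genes tested. The map of all 34 members over 12 comparisons shows both directions side by side.

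**Figure D1:**
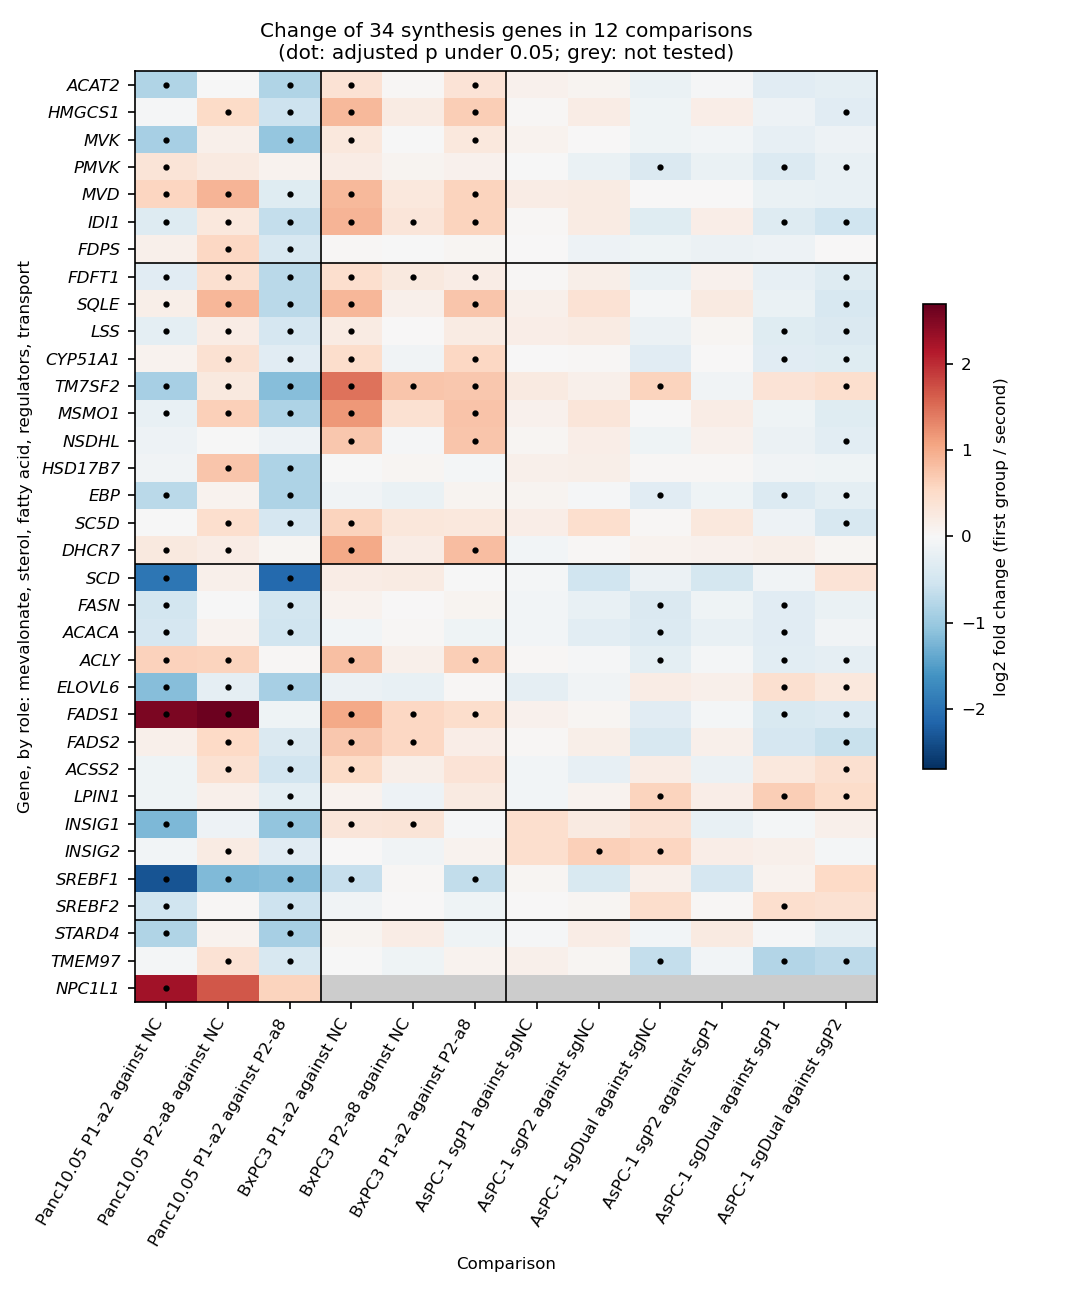
Log2 fold change of each of the 34 genes (lines, ordered by role and separated by horizontal rules) in 12 comparisons within a line (columns), with blue for lower and red for higher in the first group, a dot for an adjusted p under 0.05 and grey for genes not tested. The third column, P1-a2 against P2-a8 in Panc10.05, is blue in 28 genes past the threshold and red in 0, while the sixth, the same contrast in BxPC3, is red in 14 and blue in 1.

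SREBF1 (GRCh38, GENCODE annotation: ENSG00000072310, chromosome 17, 17810399 to 17837002, minus strand) gave 131 and 129 CPM in the NC libraries, 52.9 and 61.3 under P2-a8 and 23.3 and 28.2 under P1-a2. The 3 groups did not overlap, and P1-a2 was lowest. SREBF1 fell with P1-a2 (-2.33, SE 0.08, adjusted p 1.09e-22) and with P2-a8 (-1.19, SE 0.08, adjusted p 6.93e-15). Here and below the first value is the log2 fold change, and p-values come from edgeR's quasi-likelihood test, Benjamini-Hochberg adjusted over all genes tested. INSIG1 (ENSG00000186480, chromosome 7, 155297776 to 155310235, plus strand) gave 68.6 and 69.3 CPM in NC, 55.7 and 69.7 under P2-a8 and 30.2 and 29.7 under P1-a2. Both P1-a2 libraries lay below all others, and P2-a8 overlapped NC. INSIG1 fell with P1-a2 (-1.20, SE 0.08, adjusted p 2.66e-15) and was not past the threshold with P2-a8 (-0.14, adjusted p 0.139), except without P2-a8 replicate 2 (-0.30, adjusted p 0.00335). SREBF2 went from 222 and 209 CPM in NC to 145 and 154 under P1-a2, a fall of smaller size (-0.53, SE 0.06, adjusted p 1.55e-09), and was at 206 and 235 under P2-a8 (0.04, adjusted p 0.681). INSIG2, the second retention protein, was not past the threshold with P1-a2 (-0.08, adjusted p 0.399) and rose with P2-a8 (0.22, adjusted p 0.0142), a call lost without P2-a8 replicate 1 (adjusted p 0.248), without NC replicate 1 (0.0815) and with DESeq2 (0.0595).

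In the fatty acid arm, SCD (ENSG00000099194, chromosome 10, 100347124 to 100364834, plus strand) gave 762 and 758 CPM in NC, 698 and 980.1 under P2-a8 and 165 and 229 under P1-a2. The P1-a2 libraries were far below the rest, while the P2-a8 libraries lay on either side of NC. Its log2 fold change with P1-a2 was -1.95, SE 0.28, adjusted p 0.00909, and the adjusted p became 0.0538 and 0.054 without either NC library. ELOVL6, which lengthens palmitate to stearate, went from 36.3 and 35.1 to 16.2 and 16.1 CPM (-1.14, SE 0.08, adjusted p 6.85e-16). FASN, the fatty acid synthase, went from 546 and 484 to 349.8 and 381 CPM (-0.50, SE 0.12, adjusted p 0.00741), with 0.148 and 0.101 as adjusted p without NC replicate 1 or 2. ACACA, the acetyl-CoA carboxylase that feeds it, fell by a similar amount (-0.45, SE 0.13, adjusted p 0.019). ACSS2, LPIN1 and FADS2 did not pass the threshold with P1-a2.

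Both members of the fatty acid arm that rose with P1-a2 also rose with P2-a8. FADS1, the delta-5 desaturase (ENSG00000149485, chromosome 11, 61799625 to 61829318, minus strand), gave 3.602 and 4.81 CPM in NC, 24.9 and 23.6 under P1-a2 and 25.1 and 27.4 under P2-a8. All 4 induced libraries were above NC, and those under P2-a8 were slightly above those under P1-a2. Its rise was 2.54, SE 0.11, adjusted p 9.62e-23 with P1-a2 and 2.65, SE 0.11, adjusted p 9.34e-23 with P2-a8, which share the NC libraries. FADS1 and FADS2 share 490 bases of exon on opposite strands, and the strand setting of the counting is not given in the sources used here. FADS2 itself stood at 2.55 to 4.73 CPM over the 6 libraries, with 0.15, adjusted p 0.49 for P1-a2 and 0.55, adjusted p 0.0083 for P2-a8. ACLY, which cleaves citrate to acetyl-CoA, went from 148 and 137 CPM to 218 and 223 under P1-a2 (0.63, SE 0.06, adjusted p 3.22e-12) and 212 and 223 under P2-a8 (0.61, SE 0.06, adjusted p 2.59e-11).

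**Figure D2:**
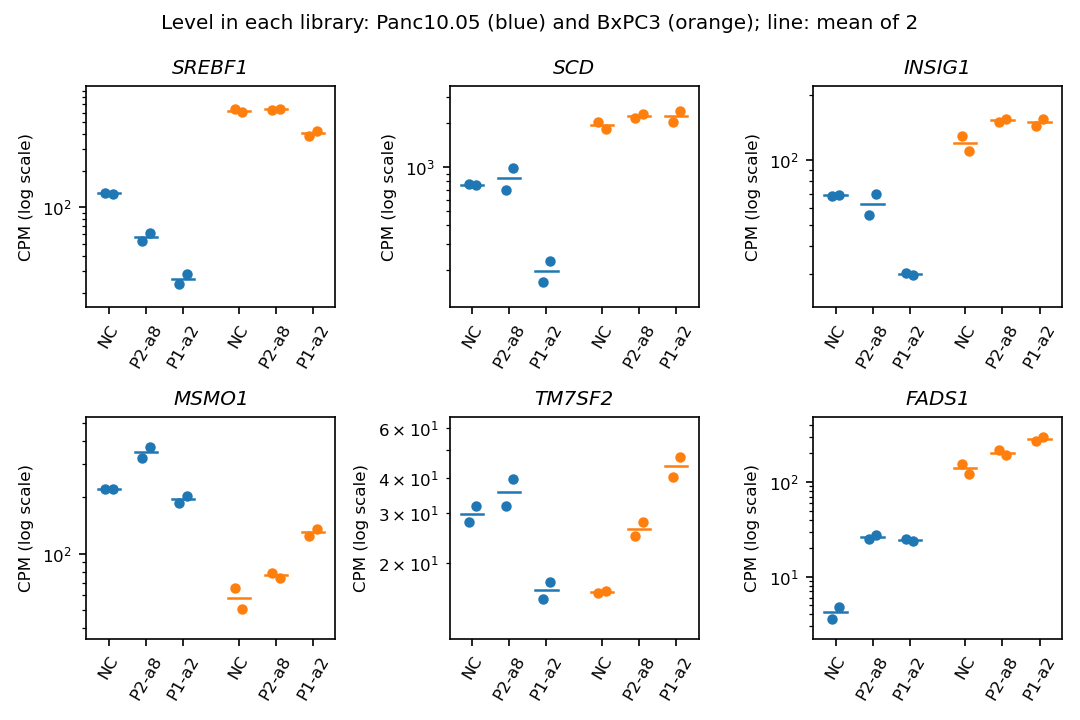
CPM of 6 genes on a log axis in each library of Panc10.05 (blue) and BxPC3 (orange), by group, with a line at the mean of the 2 libraries. SREBF1 was lowest under P1-a2 in both lines, while TM7SF2 and MSMO1 were lowest under P1-a2 in Panc10.05 and highest under P1-a2 in BxPC3.

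With P1-a2 in Panc10.05 the mevalonate and sterol arms held genes of both directions. In the mevalonate arm ACAT2, MVK and IDI1 were lower and PMVK and MVD higher, and HMGCS1, the entry enzyme HMG-CoA synthase, did not pass the threshold (178 and 173 CPM in NC and 169 and 174 under P1-a2, -0.03, adjusted p 0.657). In the sterol arm 5 genes were lower and 2 higher. TM7SF2, a sterol C14 reductase (ENSG00000149809, chromosome 11, 65111845 to 65116384, plus strand), went from 27.8 and 31.7 CPM to 14.9 and 17.2 (-0.89, SE 0.10, adjusted p 5.11e-09), and EBP, the sterol isomerase, from 78.4 and 88.0 to 50.6 and 50.03 (-0.72, SE 0.07, adjusted p 6.33e-12). MVK, the mevalonate kinase, went from 52.2 and 50.4 to 25.99 and 28.7 CPM (-0.91, SE 0.08, adjusted p 6.22e-14). SQLE, the squalene epoxidase, rose slightly from 101 and 97.7 to 113 and 109 CPM (0.16, SE 0.06, adjusted p 0.026), a call lost with DESeq2 (adjusted p 0.069), without P1-a2 replicate 1 (0.146) and without NC replicate 2 (0.101). DHCR7, the last reductase before cholesterol, rose by 0.25 (adjusted p 0.00278). Among the transport genes STARD4, a sterol carrier, went from 36.2 and 34.5 to 19.5 and 20.7 CPM (-0.81, SE 0.08, adjusted p 6.14e-12). NPC1L1 had 1 and 5 counts in NC and 7 and 27 under P1-a2. Its fitted change of 2.27 (SE 0.72, adjusted p 0.00672) rested on these few reads, and the adjusted p was 0.0805 in DESeq2, 0.137 without NC replicate 1 and 0.362 without P1-a2 replicate 2.

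With P2-a8 in Panc10.05 most genes of the sterol arm rose. Every comparison of P2-a8 with NC in this line also sets 12.5 against 25 ng/mL doxycycline, so construct and dose cannot be told apart. Here 19 members were higher and 2 lower than in NC, beside 23.7% and 22.5% of all genes tested, and the member median was 0.25 against 0.00 over all genes. The risers were 9 of 11 sterol arm genes, 4 of 7 mevalonate genes (HMGCS1, MVD, IDI1 and FDPS), 4 of 9 fatty acid genes (ACLY, ACSS2, FADS1 and FADS2), INSIG2 and TMEM97. SQLE reached 174 and 195 CPM (0.90, SE 0.06, adjusted p 1.47e-15), and MVD, the mevalonate diphosphate decarboxylase, went from 43.4 and 44.5 to 72.9 and 92.3 CPM (0.91, SE 0.08, adjusted p 8.15e-11). MSMO1, the sterol C4 methyl oxidase (ENSG00000052802, chromosome 4, 165327623 to 165343160, plus strand), went from 222 and 222 to 326 and 371 CPM (0.65, SE 0.06, adjusted p 1.54e-11), and HMGCS1 from 178 and 173 to 234 and 269.6 CPM (0.52, SE 0.06, adjusted p 3.52e-09). In each of these 4 genes both P2-a8 libraries were above both NC libraries, with replicate 2 the higher. SREBF1 and ELOVL6 were the 2 that fell, and ELOVL6 (-0.24, SE 0.08, adjusted p 0.0107) had an adjusted p of 0.141 without P2-a8 replicate 1 and 0.0825 without NC replicate 1. SCD (0.14, adjusted p 0.73) and FASN (-0.01, adjusted p 0.967) did not pass the threshold, nor did NPC1L1 (1.67, adjusted p 0.0827), which passed without NC replicate 2 (3.28, adjusted p 0.0307).

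Set directly against each other in Panc10.05, P1-a2 was below P2-a8 for 28 of the 34 members and above it for 0. Over all genes tested 24.7% were lower and 22.2% higher, and the member median was -0.53 against 0.00 for all genes. The 28 comprised 6 of 7 mevalonate genes, 9 of 11 sterol genes, 7 of 9 fatty acid genes, all 4 regulators, and STARD4 and TMEM97. PMVK, NSDHL, DHCR7, ACLY, FADS1 and NPC1L1 did not pass the threshold. SCD had the largest difference (-2.09, SE 0.28, adjusted p 0.0108), then TM7SF2 (-1.15, SE 0.10, adjusted p 5.84e-11) and SREBF1 (-1.14, SE 0.08, adjusted p 1.11e-13). The other followed genes were INSIG1 (-1.06, adjusted p 2.58e-13), SQLE (-0.74, adjusted p 4.35e-13), SREBF2 (-0.56, adjusted p 8.91e-10), HMGCS1 (-0.55, adjusted p 8.34e-10), FASN (-0.49, adjusted p 0.0114) and INSIG2 (-0.30, adjusted p 0.00111), all lower with P1-a2, and NPC1L1, which did not pass (0.60, adjusted p 0.4). FASN had an adjusted p of 0.0791 when only these 2 groups were fitted. P1-a2 and P2-a8 had different doxycycline doses in Panc10.05, and HNF4A mRNA was lower with P1-a2 (-1.66, SE 0.10, adjusted p 5.02e-17), so isoform, dose and HNF4A level cannot be told apart here.

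**Figure D3:**
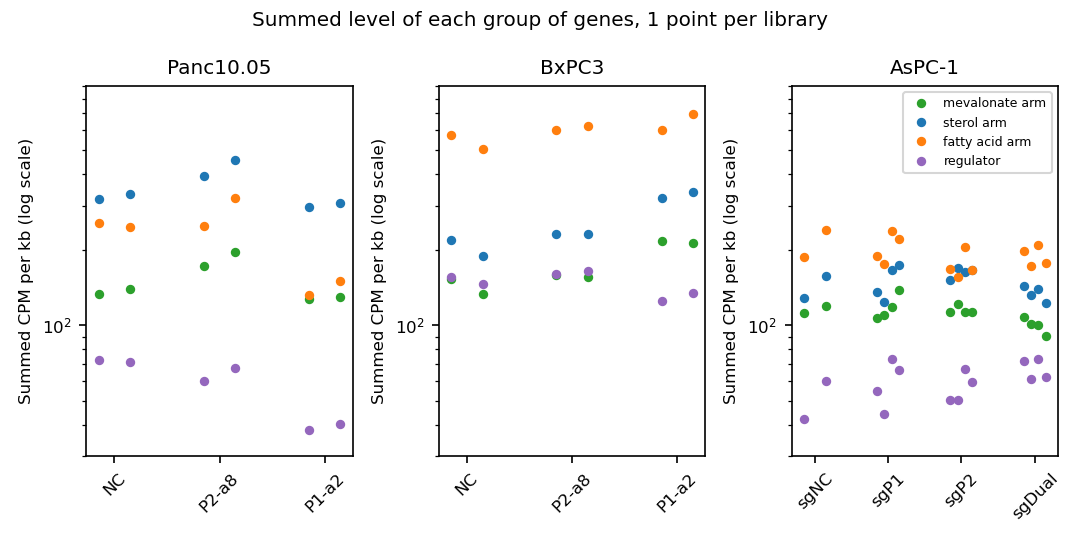
Summed CPM per kilobase of exon over the members of 4 roles (mevalonate arm green, sterol arm blue, fatty acid arm orange, regulators purple) on a log axis, 1 point per library, by group and line. In Panc10.05 the fatty acid sum was 132 and 150.2 under P1-a2 against 256 and 246 in NC, while in BxPC3 the sterol sum was 321 and 339 under P1-a2 against 218 and 189 in NC.

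Summed per kilobase of exon, the 9 fatty acid genes of Panc10.05 gave 256 and 246 CPM per kb in NC, 249 and 322 under P2-a8 and 132 and 150.2 under P1-a2. The P1-a2 libraries were the lowest 2 of the 6, and SCD made up the largest part of this sum in NC. The 11 sterol genes gave 319 and 335 in NC, 394 and 454 under P2-a8 and 297 and 306 under P1-a2. These sums did not overlap between groups and lay in the order P1-a2, NC, P2-a8. The 4 regulators gave 72.9 and 71.5 in NC, 59.7 and 67.4 under P2-a8 and 38.4 and 40.3 under P1-a2.

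In BxPC3, P1-a2 came with higher levels of most genes of sterol synthesis. Of 33 members tested 19 were higher than in NC and 1 lower, beside 17.1% and 14.9% of all 17635 genes tested, and the member median was 0.33 against -0.01. The risers were 5 of 7 mevalonate genes (ACAT2, HMGCS1, MVK, MVD and IDI1), 9 of 11 sterol genes (all but HSD17B7 and EBP), 4 of 9 fatty acid genes (ACLY, FADS1, FADS2 and ACSS2) and INSIG1. LSS, the lanosterol synthase, was at the threshold itself (adjusted p 0.049963). TM7SF2 gave 15.7 and 15.9 CPM in NC, 24.8 and 28.0 under P2-a8 and 40.4 and 47.4 under P1-a2. The 3 groups stood apart, and the change was 1.48, SE 0.10, adjusted p 1.41e-06 with P1-a2 and 0.74, SE 0.10, adjusted p 0.00121 with P2-a8. MSMO1 gave 65.4 and 50.5 CPM in NC, 78.4 and 74.4 under P2-a8 and 125 and 135 under P1-a2, a rise with P1-a2 of 1.17, SE 0.11, adjusted p 7.01e-05. FADS1 gave 156 and 122, 216 and 192 and 270.1 and 296 CPM in the same order, a rise with P1-a2 of 1.03, SE 0.12, adjusted p 0.000369. For both genes every P1-a2 library was above every other library.

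DHCR7 rose by 1.02 (SE 0.10, adjusted p 0.000117) with P1-a2 in BxPC3, from 138 and 109.5 to 237 and 265 CPM. SQLE went from 95.0 and 79.0 to 163 and 159.6 CPM (0.89, SE 0.08, adjusted p 8.87e-06), and HMGCS1 from 282 and 224 to 472 and 456 CPM (0.87, SE 0.10, adjusted p 0.000213). IDI1, MVD and ACLY had rises of 0.93, 0.88 and 0.81. SREBF1 was the 1 member that fell, from 636 and 609 CPM to 387 and 423 (-0.62, SE 0.06, adjusted p 1.34e-05), while its P2-a8 libraries, at 634 and 645 CPM, overlapped NC (0.04, adjusted p 0.774). INSIG1 gave 129 and 110.3 CPM in NC, 144 and 155 under P1-a2 (0.33, SE 0.07, adjusted p 0.00599) and 150.2 and 155 under P2-a8 (0.35, SE 0.07, adjusted p 0.0151). The adjusted p of INSIG1 was 0.0861 for P1-a2 and 0.197 for P2-a8 without NC replicate 2, and 0.0558 and 0.0799 without replicate 2 of the induced group. SCD (0.21, adjusted p 0.0887), FASN (0.10, adjusted p 0.416), SREBF2 (-0.10, adjusted p 0.207) and INSIG2 (0.01, adjusted p 0.969) did not pass the threshold with P1-a2. SCD passed without P1-a2 replicate 1 (0.33, adjusted p 0.00768) and without the low-count filter (0.000264). NPC1L1 had at most 7 counts in any BxPC3 library and was not tested.

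With P2-a8 in BxPC3 6 members rose and 0 fell, beside 4.3% and 2.69% of all genes tested: TM7SF2, FADS1, FADS2, INSIG1, IDI1 and FDFT1. An unadjusted p under 0.05 was reached by 12 members. FADS1 rose by 0.56 (adjusted p 0.0286, but 0.161 and 0.0648 without P2-a8 replicate 1 or 2, 0.0624 without NC replicate 2 and 0.0653 when only the 2 groups were fitted). FADS2, from 9.33 and 9.07 to 12.6 and 14.4 CPM, rose by 0.55 (adjusted p 0.0185, but 0.0895 and 0.15 without NC replicate 1 or 2 and 0.139 without P2-a8 replicate 2). SQLE (0.14, adjusted p 0.355), HMGCS1 (0.21, adjusted p 0.268), SCD (0.22, adjusted p 0.172), FASN (0.02, adjusted p 0.924), SREBF2 (0.01, adjusted p 0.95) and INSIG2 (-0.09, adjusted p 0.616) did not pass. HMGCS1 passed without NC replicate 1 (0.37, adjusted p 0.0248) and, like SCD, without the low-count filter (0.00626 and 0.000504). The count of 6 became 1 without P2-a8 replicate 2 or without NC replicate 2, 3 without P2-a8 replicate 1 and 9 without NC replicate 1.

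P1-a2 against P2-a8 in BxPC3, at equal doxycycline dose, gave 14 members higher and 1 lower, beside 11.6% and 10.8% of all genes, with a member median of 0.21 against -0.01. The higher ones were 5 mevalonate genes, 7 sterol genes, ACLY and FADS1. DHCR7 (0.82, SE 0.10, adjusted p 0.000868), MSMO1 (0.76, SE 0.11, adjusted p 0.0015) and NSDHL, a sterol C4 decarboxylase (0.76, SE 0.07, adjusted p 6.74e-05), differed most. NSDHL gave 76.4 and 78.0 CPM under P1-a2, 43.9 and 47.5 under P2-a8 and 49.3 and 43.9 in NC, so that P2-a8 overlapped NC and P1-a2 stood above both. SQLE (0.75, adjusted p 9.84e-05) and HMGCS1 (0.66, adjusted p 0.00194) were higher and SREBF1 lower (-0.66, SE 0.06, adjusted p 3.39e-05). INSIG1 (-0.03, adjusted p 0.832), INSIG2 (0.10, adjusted p 0.456), SREBF2 (-0.11, adjusted p 0.194), SCD (-0.01, adjusted p 0.937) and FASN (0.07, adjusted p 0.567) did not pass the threshold. HNF4A mRNA was not past the threshold between the isoforms in BxPC3 (-0.33, adjusted p 0.217).

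Because no libraries are shared between the lines, the same contrast can be set side by side. For P1-a2 against P2-a8, 10 of the 33 members tested in both lines were lower in Panc10.05 and higher in BxPC3, beside 2.15% of the 15476 genes tested in both: ACAT2, HMGCS1, MVK, MVD, IDI1, FDFT1, SQLE, CYP51A1, TM7SF2 and MSMO1, all of the mevalonate and sterol arms. SREBF1 was the 1 member past the threshold in the same direction in both, lower under P1-a2 (6.31% of all genes were lower in both and 5.58% higher). For P1-a2 against NC, 8 were lower in Panc10.05 and higher in BxPC3 (ACAT2, MVK, IDI1, FDFT1, LSS, TM7SF2, MSMO1 and INSIG1), 5 were higher in both (MVD, SQLE, DHCR7, ACLY and FADS1) and SREBF1 was lower in both. Over all genes these shares were 3.41%, 10.2% and 8.85%. For P2-a8 against NC, 5 were higher in both (IDI1, FDFT1, TM7SF2, FADS1 and FADS2) and 0 were in opposite directions, beside 2.7% of all genes higher in both and, in opposite directions, 0.588% lower and 0.859% higher in Panc10.05.

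**Figure D4:**
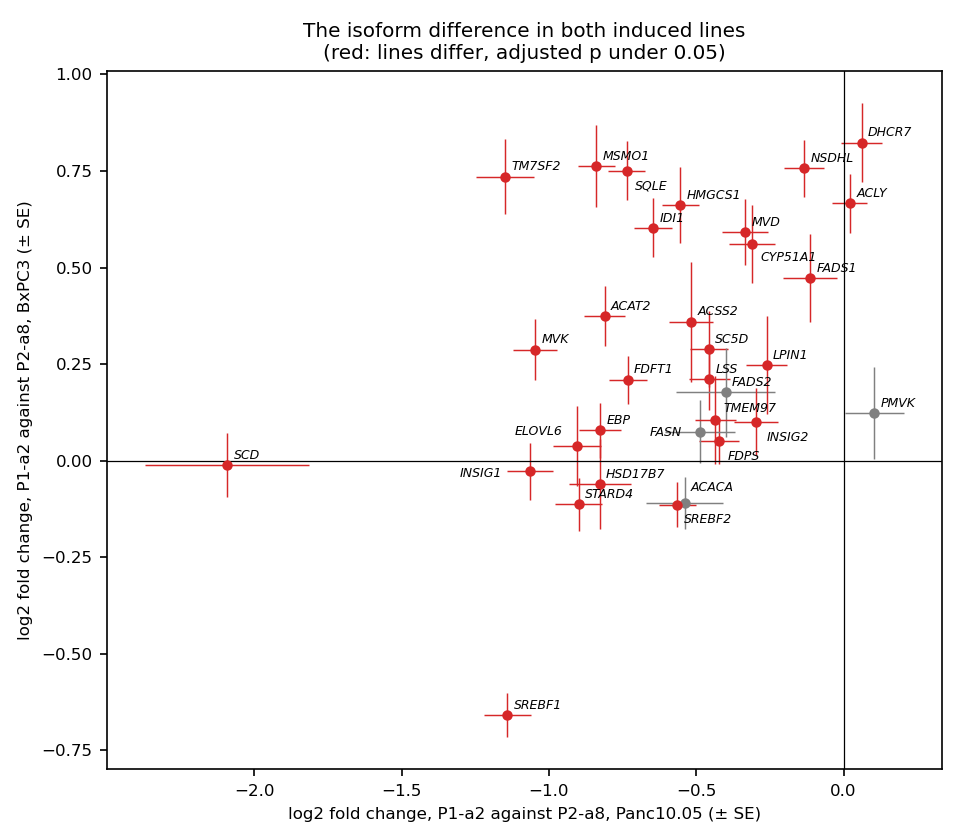
Log2 fold change of P1-a2 against P2-a8 for 33 genes in Panc10.05 (horizontal) and BxPC3 (vertical), with bars for 1 SE and red where the lines differed with an adjusted p under 0.05. Sterol genes such as TM7SF2 (-1.15 and 0.74) and MSMO1 (-0.84 and 0.76) lie at the upper left, and SREBF1 (-1.14 and -0.66) is the lowest point.

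The difference between the lines was tested in a joint fit of their 12 libraries, as the change in Panc10.05 minus the change in BxPC3. For P1-a2 against P2-a8, 29 of 34 members had a smaller value in Panc10.05 and 0 a larger one, beside 13.5% and 8.81% of all 19372 genes tested. All 11 sterol genes and all 4 regulators were among them, SREBF1 too (-0.47, adjusted p 0.00352), so that its shared fall was of different size. SCD (-2.07, SE 0.30, adjusted p 0.00353), TM7SF2 (-1.88, SE 0.16, adjusted p 5.29e-08) and MSMO1 (-1.59, SE 0.13, adjusted p 3.59e-07) had the largest differences. For P1-a2 against NC 23 members were smaller and 1, FADS1 (1.52, SE 0.19, adjusted p 2.96e-05), larger, beside 20.1% and 16.3% of all genes. TM7SF2 (-2.35, SE 0.16, adjusted p 7.45e-10), SCD (-2.15, SE 0.30, adjusted p 0.00148) and SREBF1 (-1.70, SE 0.11, adjusted p 1.55e-10) differed most in the negative direction. For P2-a8 against NC 9 were larger and 3 smaller, beside 11.5% and 11.9% of all genes. FADS1 (2.10, SE 0.19, adjusted p 4.61e-06), SQLE (0.76, SE 0.10, adjusted p 8.26e-06) and HSD17B7 (0.68, SE 0.17, adjusted p 0.00374) had the largest positive differences, and SREBF1 (-1.23, SE 0.11, adjusted p 4.43e-08), INSIG1 (-0.49, SE 0.12, adjusted p 0.00543) and TM7SF2 (-0.48, SE 0.16, adjusted p 0.035) were the 3 negative ones. TM7SF2 lost this call without P2-a8 replicate 1 (adjusted p 0.21) or NC replicate 2 (0.168) of Panc10.05, and without P2-a8 replicate 2 (0.131) or either NC library (0.102 and 0.0788) of BxPC3. INSIG1 had 0.0521 without P2-a8 replicate 1 of Panc10.05. Of the other followed genes, INSIG1 (-1.52 with P1-a2 relative to NC, then -1.03 relative to P2-a8), SQLE (-0.72 and -1.48), HMGCS1 (-0.90 and -1.21) and SREBF2 (-0.41 and -0.44) were smaller in Panc10.05 in both contrasts. FASN was smaller for P1-a2 against NC (-0.58, adjusted p 0.029) and not past the threshold for P1-a2 against P2-a8 (-0.55, adjusted p 0.0537). INSIG2 was not past it for P1-a2 against NC (-0.07, adjusted p 0.7), smaller for P1-a2 against P2-a8 (-0.39, adjusted p 0.017) and larger for P2-a8 against NC (0.32, adjusted p 0.0485). For P2-a8 against NC, HMGCS1 (0.31, adjusted p 0.0813), SREBF2 (0.03, adjusted p 0.913), SCD (-0.08, adjusted p 0.927) and FASN (-0.03, adjusted p 0.97) did not pass. NPC1L1 passed in none of the 3 (adjusted p 0.934, 0.539 and 0.484). HNF4A itself differed between the lines in this fit for P1-a2 against P2-a8 (-1.33, SE 0.21, adjusted p 0.000171). It also differed for P1-a2 against NC (2.35, adjusted p 0.00216) and for P2-a8 against NC (3.68, adjusted p 5.41e-05). Line, doxycycline dose, HNF4A level, control construct and the number series in the library titles change together and cannot be told apart.

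Of 36 other genes of lipid synthesis, transport and sterol sensing, 35 were tested in each induced line. In Panc10.05, 11 rose and 17 fell with P1-a2 and 14 rose and 10 fell with P2-a8, and in BxPC3 14 rose and 1 fell with P1-a2 and 4 rose and 0 fell with P2-a8. The shares of all genes tested, higher and lower, were 31.5% and 30.5%, 23.7% and 22.5%, 17.1% and 14.9%, and 4.3% and 2.69% in that order. MLXIPL, which encodes the carbohydrate-responsive factor ChREBP, gave 0.961 and 0.927 CPM in NC, 7.44 and 8.40 under P2-a8 and 12.9 and 16.3 under P1-a2 in Panc10.05. In BxPC3 MLXIPL gave 1.00 and 0.874, 8.55 and 8.63 and 17.8 and 27.4 CPM. It was thus higher under both isoforms in both lines, by 3.95 and 3.06 in Panc10.05 and 4.60 and 3.20 in BxPC3 for P1-a2 and P2-a8 (adjusted p 2.2e-23, 5.63e-18, 1.07e-06 and 7.77e-05). In AsPC-1, where HNF4A was repressed and not induced, MLXIPL was higher with sgDual than with sgP1 (1.21, SE 0.32, adjusted p 0.00911) and sgP2 (2.08, SE 0.34, adjusted p 0.000259). Its mean there was 6.24 CPM with sgDual, 2.73 with sgP1, 1.47 with sgP2 and 3.32 with sgNC. The sgDual libraries (4.10 to 9.13 CPM) overlapped those of sgNC (2.44 and 4.21). ABCA1, the cholesterol exporter, went from 92.7 and 81.4 CPM to 15.2 and 18.8 under P1-a2 (-2.35, SE 0.09, adjusted p 3.8e-20) and 33.7 and 37.8 under P2-a8 (-1.29, SE 0.08, adjusted p 8.07e-14) in Panc10.05. FADS3, next to FADS1 and FADS2 in the genome, rose in BxPC3 with P1-a2 (1.74, SE 0.17, adjusted p 0.000357) and with P2-a8 (0.85, SE 0.17, adjusted p 0.0333). LBR, the lamin B receptor with sterol C14 reductase activity like TM7SF2, fell in BxPC3 with P1-a2 (-0.40, SE 0.06, adjusted p 0.000455) and rose in Panc10.05 with P1-a2 (0.35, SE 0.07, adjusted p 1.22e-05) and with P2-a8 (0.67, SE 0.07, adjusted p 1.96e-11). This difference between the lines passed in the joint fit for P1-a2 (0.76, adjusted p 3.51e-07) and for P2-a8 (0.89, adjusted p 1.24e-07).

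In AsPC-1, which expresses HNF4A of its own, 9 of these genes passed the threshold when both promoters were repressed. With sgDual against sgNC 3 of 33 members were higher and 6 lower, beside 17.8% and 17.8% of all 16992 genes tested, and the member median was -0.11 against 0.00. The members raised were TM7SF2, LPIN1 and INSIG2, and those lowered were TMEM97, FASN, PMVK, ACACA, EBP and ACLY. TMEM97, a sterol-trafficking membrane protein, gave 35.7 and 32.0 CPM with sgNC and 22.7, 19.1, 22.9 and 21.5 with sgDual. All 4 sgDual libraries were below every one of the other 10, and the fall was -0.65, SE 0.09, adjusted p 0.000106. LPIN1, a phosphatidate phosphatase, gave 24.0 and 28.4 CPM with sgNC and 43.3, 40.01, 38.9 and 35.7 with sgDual, a rise of 0.59, SE 0.11, adjusted p 0.000811 with no overlap. FASN gave 251 and 281 CPM with sgNC and 235, 208, 194 and 173 with sgDual (-0.39, SE 0.11, adjusted p 0.0114), and the adjusted p was 0.135 without sgNC replicate 2 and 0.111 without guide sgDual3. PMVK, the phosphomevalonate kinase, gave 45.4 and 40.9 CPM with sgNC and 34.1, 33.6, 33.4 and 31.0 with sgDual (-0.39, SE 0.09, adjusted p 0.00299), with 0.0795 as adjusted p without sgNC replicate 1. The count of 9 was 4 without sgNC replicate 1 and 5 without guide sgDual3.

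TM7SF2 gave 10.2 and 11.7 CPM with sgNC and 17.3, 15.3, 17.4 and 16.1 with sgDual (0.59, SE 0.21, adjusted p 0.0426), a call that leaving out any 1 sgDual or sgNC library ended (adjusted p 0.0528 to 0.267). INSIG2 gave 44.5 and 50.02 CPM with sgNC, 73.2, 81.9, 60.9 and 65.9 with sgDual (0.58, SE 0.15, adjusted p 0.00716), 75.4, 80.0, 65.4 and 73.3 with sgP2 (0.64, SE 0.15, adjusted p 0.0304) and 71.7, 75.0, 51.3 and 59.6 with sgP1 (0.45, adjusted p 0.308). Every library with a targeting guide was above both sgNC libraries. The adjusted p of INSIG2 for sgDual was 0.104 without sgNC replicate 1 and 0.0587 without guide sgDual2. For sgP2 it was 0.288 and 0.157 without sgNC replicate 1 or 2, 0.067 and 0.062 without sgP2D replicate 1 or 2 and 0.0571 without sgP2G replicate 2. The regulators SREBF1 (0.14, adjusted p 0.746), SREBF2 (0.46, adjusted p 0.0912) and INSIG1 (0.38, adjusted p 0.319) did not pass the threshold with sgDual, although SREBF2 passed without sgNC replicate 2 (0.78, adjusted p 0.035) and when only the 2 groups were fitted (0.0434). SCD (-0.16, adjusted p 0.691), HMGCS1 (-0.11, adjusted p 0.628) and SQLE (-0.04, adjusted p 0.873) did not pass either, and NPC1L1 had at most 8 counts in any AsPC-1 library and was not tested.

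**Figure D5:**
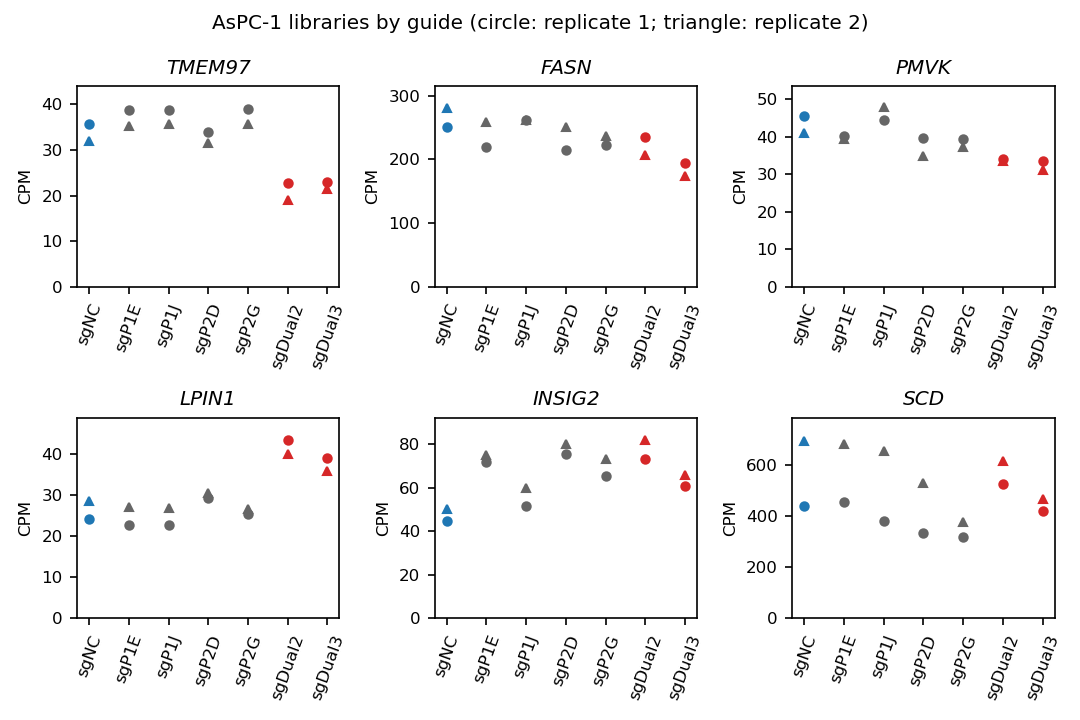
CPM of 6 genes in each AsPC-1 library by guide, with circles for replicate 1 and triangles for replicate 2, blue for sgNC, grey for guides to 1 promoter and red for the dual guides, on axes that start at 0. TMEM97 lay between 19.1 and 22.9 CPM with the dual guides and between 31.5 and 39.0 elsewhere, and SCD was higher in replicate 2 than in replicate 1 for each of the 7 guides.

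With guides to 1 promoter few members passed the threshold. With sgP1 against sgNC 0 of 33 passed edgeR's threshold, beside 0.265% of all genes, and 1 had an unadjusted p under 0.05. With sgP2 against sgNC INSIG2 alone was higher and 0 were lower, beside 1.66% and 1.76% of all genes. With sgP2, SC5D (sterol C5 desaturase) had 0.46, SE 0.12, adjusted p 0.055, SREBF1 -0.40, SE 0.27, adjusted p 0.498 and SCD -0.54, SE 0.27, adjusted p 0.335. SQLE (0.38, adjusted p 0.281), HMGCS1 (0.21, adjusted p 0.527), FASN (-0.20, adjusted p 0.368), INSIG1 (0.24, adjusted p 0.726) and SREBF2 (0.05, adjusted p 0.932) did not pass. Between sgP2 and sgP1 0 members passed, beside 4.3% of all genes, and 3 had an unadjusted p under 0.05. The count was 1 without sgP2D replicate 2 and 5 without guide sgP1E. DESeq2 called 0 members for sgP1 against sgNC and for sgP2 against sgP1. With sgP1, INSIG2 (0.45, adjusted p 0.308) and INSIG1 (0.44, adjusted p 0.722) had the highest log2 fold changes of the followed genes and FASN (-0.08, adjusted p 0.902) the lowest, with SREBF1 at 0.05, SREBF2 at 0.02, SQLE at 0.13, HMGCS1 at 0.02 and SCD at -0.06. INSIG2 passed for sgP1 without guide sgP1J (0.64, adjusted p 0.00738). Between sgP2 and sgP1 the same genes had 0.19 (INSIG2), -0.21 (INSIG1), -0.12 (FASN), -0.45 (SREBF1), 0.03 (SREBF2), 0.25 (SQLE), 0.19 (HMGCS1) and -0.48 (SCD). INSIG2 passed here without guide sgP1E (0.41, adjusted p 0.0264).

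The dual guides were also set against each single target. Against sgP2, 4 members were higher (LPIN1, TM7SF2, ACSS2 and ELOVL6) and 14 lower, beside 22.8% and 23.5% of all genes, with a member median of -0.20 against -0.01. The 14 comprised 7 of 11 sterol genes, HMGCS1, PMVK and IDI1 of the mevalonate arm, ACLY, FADS1, FADS2 and TMEM97. IDI1, the isopentenyl diphosphate isomerase, gave 67.4, 69.2, 73.4 and 72.5 CPM with sgP2 and 53.1, 53.1, 44.8 and 43.4 with sgDual (-0.54, SE 0.11, adjusted p 0.000726), with no overlap. TMEM97 (-0.70, SE 0.08, adjusted p 4.94e-06) and FADS2 (-0.59, SE 0.19, adjusted p 0.0205) had the largest falls, and LPIN1 (0.50, SE 0.09, adjusted p 0.000287) and TM7SF2 (0.46, SE 0.17, adjusted p 0.0373) the largest rises. ACSS2, the acetyl-CoA synthetase, rose by 0.43 (adjusted p 0.00637). HMGCS1 was at the threshold itself (-0.32, adjusted p 0.049992) and SQLE was lower (-0.43, adjusted p 0.0252), and leaving out guide sgDual3 gave adjusted p of 0.333 and 0.255 for these genes. HMGCS1 lost its call without any 1 of the sgDual and sgP2 libraries but sgDual2 replicate 1 (adjusted p 0.0587 to 0.133). SQLE lost it without sgP2D replicate 2, either sgP2G library or either sgDual3 library (0.0501 to 0.0777). TM7SF2 lost it without replicate 1 of sgP2D, sgP2G or sgDual2 or either sgDual3 library (0.0607 to 0.108), and FADS2 without either sgP2D library or sgDual3 replicate 2 (0.0535 to 0.066). With a whole guide left out, FADS2 had an adjusted p of 0.246 (sgP2D), 0.148 (sgDual3) and 0.0533 (sgDual2). TM7SF2 (0.0992 to 0.145) and HMGCS1 (0.0546 to 0.333) lost the call without any 1 sgDual or sgP2 guide. SQLE also lost it without guide sgP2D (0.0734) or sgP2G (0.146). ACSS2 lost it without guide sgDual2 (0.0855) or guide sgP2G (0.0766). SREBF1 (0.54, adjusted p 0.0718), SREBF2 (0.42, adjusted p 0.0502), INSIG1 (0.15, adjusted p 0.62), INSIG2 (-0.06, adjusted p 0.696), SCD (0.38, adjusted p 0.196) and FASN (-0.19, adjusted p 0.0997) did not pass. Without sgP2D replicate 2 SREBF1 (0.72, adjusted p 0.0216) and SREBF2 (0.51, 0.0314) passed, as both did in DESeq2 (0.0264 and 0.027) and when only the 2 groups were fitted (0.0498 and 0.00373), and SREBF2 with RLE scaling (0.0488). FASN passed without sgDual2 replicate 1 (-0.26, 0.0291) and without guide sgDual2 (-0.33, 0.0214). The count of 18 was 10 without sgP2G replicate 1, 9 without sgDual3 replicate 2, 10 without guide sgP2D or sgDual2, 7 without guide sgP2G and 5 without guide sgDual3.

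Against sgP1, 3 members were higher with the dual guides (LPIN1, SREBF2 and ELOVL6) and 10 lower, beside 18.6% and 19.7% of all genes. TMEM97 (-0.78, SE 0.08, adjusted p 3.47e-06), EBP (-0.38, SE 0.09, adjusted p 0.00408) and PMVK (-0.38, SE 0.07, adjusted p 0.000799) fell with no overlap between the groups, and FASN fell too (-0.31, adjusted p 0.014). SREBF2 gave 99.0, 148, 95.5 and 144 CPM with sgP1 and 181, 175, 151 and 154 with sgDual. Its rise (0.44, SE 0.16, adjusted p 0.0448) was lost in 12 alternatives, up to an adjusted p of 0.263 without guide sgDual2, and from 0.0517 to 0.123 without any 1 sgDual library or replicate 1 of sgP1E or sgP1J. ELOVL6 (0.44, SE 0.09, adjusted p 0.00184) and LPIN1 (0.67, SE 0.09, adjusted p 4.34e-05) rose as well. HMGCS1 (-0.13, adjusted p 0.445), SQLE (-0.18, adjusted p 0.355), INSIG1 (-0.06, adjusted p 0.858), INSIG2 (0.13, adjusted p 0.416), SREBF1 (0.09, adjusted p 0.799) and SCD (-0.10, adjusted p 0.759) did not pass, but INSIG2 did without guide sgP1E (0.36, adjusted p 0.0228). FASN lost its call without sgDual3 replicate 2 (0.0533), without guide sgDual3 (0.213) and without guide sgP1J (0.0987), and EBP without guide sgP1J (0.0636). The count of 13 was 8 without sgDual3 replicate 2 and 6 without guide sgDual3.

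Whether the dual change equalled the sum of the single changes on the log2 scale was tested next. HNF4A itself was below the sum (-2.71, SE 0.52, adjusted p 0.00383). Departures of members from the sum therefore cannot be told apart from that of HNF4A. The dual change differed from the sum for 6 of 33 members, beside 20.7% of all genes in either direction. It was above the sum for 2 members, LPIN1 (0.58, SE 0.14, adjusted p 0.00819) and ELOVL6 (0.53, SE 0.15, adjusted p 0.0187), and below it for 4, TMEM97 (-0.83, SE 0.12, adjusted p 0.000315), SC5D (-0.59, SE 0.16, adjusted p 0.0158), IDI1 (-0.58, SE 0.17, adjusted p 0.0243) and LSS (-0.56, SE 0.19, adjusted p 0.0474). SC5D gave 37.1 and 45.1 CPM with sgNC, 48.6, 52.4, 36.8 and 47.2 with sgP1, 56.2, 54.5, 58.4 and 57.3 with sgP2 and 43.5, 47.4, 38.6 and 39.3 with sgDual. The sgP2 libraries were the highest and the sgDual libraries overlapped sgNC. The count of 6 was 2 without guide sgP2G or sgDual3, 3 without sgNC replicate 1, 11 without sgP1J replicate 1 and 12 without guide sgP1J. The followed genes INSIG1 (-0.30, adjusted p 0.608), INSIG2 (-0.51, adjusted p 0.067), SREBF1 (0.49, adjusted p 0.368), SREBF2 (0.40, adjusted p 0.3), SQLE (-0.56, adjusted p 0.098), HMGCS1 (-0.34, adjusted p 0.246), SCD (0.44, adjusted p 0.424) and FASN (-0.11, adjusted p 0.65) did not pass.

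The 2 guides to each target were compared with each other. Between sgP1E and sgP1J 3 members differed, INSIG2 (0.40, SE 0.10, adjusted p 0.0131), FADS1 (0.46, SE 0.13, adjusted p 0.0315) and FADS2 (0.69, SE 0.12, adjusted p 0.00153), all higher with sgP1E, beside 14.5% of all genes. FADS2 gave 89.6 and 110.5 CPM with sgP1E and 54.9 and 68.9 with sgP1J, with 74.4 and 84.9 in sgNC between them. Between sgP2D and sgP2G and between sgDual2 and sgDual3 0 members passed edgeR's threshold, beside 1.69% and 0.883% of all genes, and 2 and 3 members had an unadjusted p under 0.05. DESeq2 called 1 member between the sgP2 guides and 0 between the dual guides. Followed genes other than INSIG2 had log2 differences between guides, for sgP1, sgP2 and sgDual in turn, of 0.35, -0.02 and 0.22 for INSIG1, 0.03, 0.18 and 0.18 for SREBF1, 0.04, 0.06 and 0.23 for SREBF2, 0.08, -0.09 and 0.36 for SQLE, 0.08, -0.12 and 0.22 for HMGCS1, 0.14, 0.32 and 0.37 for SCD and -0.13, 0.02 and 0.27 for FASN, and INSIG2 had 0.16 and 0.29 for sgP2 and sgDual. None of these passed the threshold.

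Replicate number moved with some members in AsPC-1, as it did with other genes. SREBF1 gave 85.2 and 129 CPM in the 2 sgNC libraries and SCD 437 and 694, and replicate 2 was the higher for both genes, for INSIG2 and for STARD4 with each of the 7 guides. TMEM97 was the 1 member lower in replicate 2 with each guide. In all, 4 and 1 of 33 members behaved so, beside 8.35% and 10.2% of all genes. Of the 36 other lipid genes 34 were tested in AsPC-1, and 12 rose and 5 fell with sgDual, beside the 17.8% of all genes in each direction. ME1, the malic enzyme that makes NADPH, rose most (1.42, SE 0.26, adjusted p 0.000889), then FADS3 (1.15, SE 0.15, adjusted p 5.1e-05), while LBR fell (-0.64, SE 0.09, adjusted p 0.000105) and ELOVL1, an elongase of very long fatty acids, fell (-0.46, SE 0.15, adjusted p 0.0269).

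Some of these counts are uncertain in their assignment. Exons of 16 members overlap genes on the opposite strand and those of 4 overlap genes on the same strand in the GENCODE annotation, and for 6 members (ACAT2, HMGCS1, IDI1, FDPS, CYP51A1 and TMEM97) an overlap covers over 10% of the exon length. For CYP51A1 it covers 79.4%, on the same strand. Genes named as pseudogenes of CYP51A1, FADS2, FDPS, HSD17B7, SCD and TMEM97 are in the annotation, and reads could be split between them.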

How the data were processed

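Gene counts of 26 poly(A) RNA-seq libraries were analysed as the authors deposited them, 1 count table per cell line. Per the submitters' processing notes, cutadapt 1.16, STAR 2.7.9a, featureCounts 1.6.3 and DESeq2 1.36.0 were used with GRCh38; the strand setting and the annotation release are not given in the sources used here. Per line, genes passing edgeR's filterByExpr were scaled by TMM and fitted over all groups with edgeR 4.0.16 (robust quasi-likelihood, R 4.3.3), with Benjamini-Hochberg adjustment over all genes tested and a threshold of 0.05. The lines were compared in a joint fit of Panc10.05 and BxPC3. SEs were derived from the fold change and F. The procedure was tested on simulated counts with the same dispersion for every gene and no guide or replicate effect. That test does not cover the spread between these libraries. Nothing says that replicates were separate cultures, so p-values measure the spread between these libraries, which may be technical. Values are given for 9 followed genes in every comparison and for the largest changes without overlap. The members and lists were chosen with earlier results of these data known. Alternatives were other scaling, no low-count filter, DESeq2 1.42.0, fits of 2 groups, a replicate block, and libraries or, added after seeing the data, guides left out.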

Additional observations from a re-analysis of the deposited data

Results flagged for a closer look

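FASN in the sgP1 group of AsPC-1 had 1 library far from the others: sgP1E replicate 1 gave 220.04 CPM beside 259 to 262 in the other 3. It was 1 of 51 groups examined over 17 genes, and chance singles out about 1 in 20 such groups.

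The change in Panc10.05 minus the change in BxPC3 passed the threshold in the joint edgeR fit for the members named here. For P1-a2 against NC it was 1.52 for FADS1, -2.35 for TM7SF2, -2.15 for SCD and -1.70 for SREBF1. For P2-a8 against NC it was 2.10 for FADS1, 0.76 for SQLE, 0.68 for HSD17B7, -1.23 for SREBF1, -0.49 for INSIG1 and -0.48 for TM7SF2. For P1-a2 against P2-a8 it was -2.07 for SCD, -1.88 for TM7SF2 and -1.59 for MSMO1. INSIG1 for P2-a8 had an adjusted p of 0.0521 without the P2-a8 replicate 1 of Panc10.05.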

How the results depend on the processing

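Direction under the alternatives was compared for the followed genes between groups of a line. It was also compared for the members with the largest changes there and in the line differences. None of these past the threshold in either fit changed direction, and other members were not checked. Of the values so compared, 1710 kept their side of the threshold, 112 lost the call and 27 gained it. Of the counts of members called, 191 stayed within 1.5 times the reported count and 44 did not. The cause was not tested. Leaving out 1 library, the counts ranged from 1 to 9 for P2-a8 against NC in BxPC3 (reported 6), and in AsPC-1 from 0 to 1 for sgP2 against sgNC (1), 0 to 1 for sgP2 against sgP1 (0), 4 to 8 for sgDual against sgNC (9), 8 to 15 for sgDual against sgP1 (13), 9 to 16 for sgDual against sgP2 (18) and 3 to 11 for dual against the sum (6). They ranged from 18 to 28 over the Panc10.05 comparisons, from 12 to 20 over the other BxPC3 comparisons and from 10 to 30 over the line differences. Without the low-count filter the counts were 12 for P2-a8 in BxPC3, 2 for sgP2 against sgNC, and 6, 2 and 2 for the guide pairs of sgP1, sgP2 and sgDual. Total counts without TMM gave 2 for sgP2 against sgNC and 10 for dual against the sum, DESeq2 gave 2 for sgP2 against sgNC and 1 for the sgP2 guides, and fitting only the 2 groups gave 2 for sgP2 against sgNC. Without guide sgP1E the count was 5 for sgP2 against sgP1. Without sgP1J it was 1 for sgP1 against sgNC and 12 for dual against the sum. Without sgP2D it was 0 for sgP2 against sgNC and 10 for sgDual against sgP2. Without sgP2G it was 0, 7 and, for dual against the sum, 2. Without sgDual2 it was 10 for sgDual against sgP2. Without sgDual3 it was 5 for sgDual against sgNC, 6 against sgP1, 5 against sgP2 and 2 for the sum.

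The labels do not say what a shared replicate number means, and with 2 numbers the pairing could not be settled. Deviations of same-numbered libraries correlated at -0.0119 to 0.00733 in Panc10.05, 0.0727 to 0.131 in BxPC3 and 0.0772 to 0.339 in AsPC-1. With the replicate block the counts were 12 for P2-a8 in BxPC3, 3 for sgP2 against sgNC, 2 for sgP2 against sgP1, 10 for dual against the sum, and 9, 1 and 2 for the guide pairs of sgP1, sgP2 and sgDual. In AsPC-1, some members moved with the replicate number, as did other genes. The block gave calls there to SREBF2 for sgDual against sgNC (adjusted p 0.011) and to SREBF1 for sgP2 against sgP1 (0.0186). For sgDual against sgP2 the block gave calls to SREBF1 (0.000393), SREBF2 (0.00491) and SCD (0.0279). In BxPC3 it gave one to HMGCS1 for P2-a8 against NC (0.0109). Depth limits NPC1L1, which had at most 27 counts in a library.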
